A study of Citrus maxima with 6 samples.

Results

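The genes that carry amino acids, nitrate, ammonium and small peptides across membranes were followed in the ripe sarcocarp (juice-filled pulp) of 2 pomelo cultivars. A gene was taken when its deposited name held amino acid permease, amino acid transporter, nitrate transporter, peptide transporter, lysine histidine transporter, proline transporter or ammonium transporter, and 107 of the 30123 genes in the table did. They comprised 14 oligopeptide transporters (OPT), 9 peptide transporters (PTR), 8 nitrate transporters of the NRT1 type and 6 of the NRT2 type, 8 ammonium transporters (AMT), 7 amino acid permeases with a number (AAP), 4 lysine histidine transporters (LHT), 3 proline transporters (ProT), 11 cationic amino acid transporters (CAT), 7 genes of the amino acid permease family, 27 other transmembrane amino acid transporters (other AAAP) and 3 bidirectional amino acid transporters. Names came from the best Arabidopsis hit of each gene, and the 107 genes shared 55 different hits, so a name gives likeness and not a tested function in pomelo. Red-sarcocarp pomelo was Citrus maxima Merr. var. Tubtim Siam and white-sarcocarp pomelo was Citrus maxima (Burm.) Osbeck. Both were orchard-grown in Xishuangbanna, and each gave 3 biological repeats mixed from the pulp of several ripe fruits. The cultivars differ in their whole genetic background as well as in pulp colour, and 1 stage was sampled, so no result below belongs to colour or to ripening alone.

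Plants take up nitrate and ammonium mainly at the root, reduce nitrate to ammonium and build amino acids, which then travel in the xylem and phloem to sinks such as fruit. NRT1 and PTR proteins belong to 1 family (NPF) whose members move nitrate, short peptides or plant hormones with protons, whereas NRT2 proteins carry nitrate with high affinity. OPT proteins carry somewhat longer peptides, and some of them carry metal chelates. AAP, LHT, ProT and GABA transporters belong to the AAAP family, which also holds auxin carriers and transporters of the vacuole membrane. CAT proteins and the amino acid permease family belong to a separate superfamily, in which several plant members carry basic amino acids or polyamines. In citrus pulp, most of the cell is the vacuole of the juice cell, where sugars, organic acids and amino acids are stored.

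Expression was given as FPKM, a read density per gene length and library size, so that levels can be set side by side between genes. The FPKM totals of the libraries, which are already scaled to depth and so do not show it, were 812335 to 835575, and 15920 to 16250 genes were above 0. Pearson's r between libraries, across genes, was 0.958 to 0.964 within a cultivar and 0.833 to 0.855 between cultivars. The 12 juice sac genes summed to 877 to 930 FPKM in red and 744 to 746 in white. At least 1 gene with each of the best hits PSY, AHA10 and AVP1 was detected in all 6 libraries, while 3 of the 12 genes were at 0 throughout. Members of this list went opposite ways, since the PSY gene Cg6g016720 passed both thresholds defined below with higher expression in red (161 ± 12.2 against 29.4 ± 4.29 FPKM, SD, n = 3), as did 1 AVP1 gene, and the vacuolar invertase gene Cg5g008630 passed with lower expression (3.70 ± 0.749 against 57.3 ± 6.50). Markers of other tissues were not equal. Seed markers (7 genes) summed to 13.7, 12.7 and 88.8 FPKM in red replicates 1 to 3 and to 0.09, 0.25 and 0.19 in white, with 5 of the 7 at 0 in all white libraries. Xylem markers (18 genes) summed to 25.04, 16.2 and 21.2 in red and 19.9, 8.71 and 20.5 in white, of which 1 gene (Cg8g000170, best hit XCP2) carried most. The other 17 summed to 0.54, 1.06 and 0.75 in red and 9.74, 3.24 and 5.38 in white, and 13 of the 18 were at 0 in all red libraries against 6 in white. Phloem markers (14 genes) summed to 173 to 223 in red and 456 to 497 in white, most of it from 1 phloem protein gene (Cg6g008370). The others summed to 49.07, 45.85 and 43.17 in red and 39.56, 36.91 and 44.98 in white. As these are bulk samples, fewer cells of a type and less RNA per cell cannot be told apart.

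Among the transporters, 62 of the 107 averaged 1 FPKM or more in red, in white or in both and were tested, together with all 14158 genes that did so, with limma on log2(FPKM + 0.1) and Benjamini-Hochberg adjustment. The thresholds were those of the study, an adjusted p no larger than 0.01 and a log2 fold change (red over white) of 2 or more either way. On this scale the change of genes with low FPKM is understated. Of the 62, 13 passed both thresholds with higher expression in red, or 21.0%, beside 3.11% of all tested genes. With a pseudocount of 1 the 13 became 8, or 12.9%, beside 1.77% of all genes. Another 4 passed with lower expression in red, or 6.45%, beside 3.65% of all genes. In either direction this made 17 of 62, or 27.4%, beside 6.76% of all genes. Of these 17, 14 reached the filter only through the cultivar in which they were high. When a mean of at least 1 over all 6 libraries was required, which 57 transporters and 13655 genes met, 11 transporters (19.3%, beside 2.77% of all genes) were higher and 4 (7.02%, beside 3.24%) were lower. At the adjusted p with any size of fold, 20 transporters (32.3%, beside 13.4% of all genes) were higher and 9 (14.5%, beside 14.1%) were lower, the latter share being close to that of all genes. Leaving out red replicate 1 brought the 20 down to 13. The libraries of the cultivars did not overlap in 48 of 62 transporters (77.4%, beside 57.7% of all genes), and the median log2 fold change was 0.20, beside 0.02 over all genes.

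**Figure D1:**
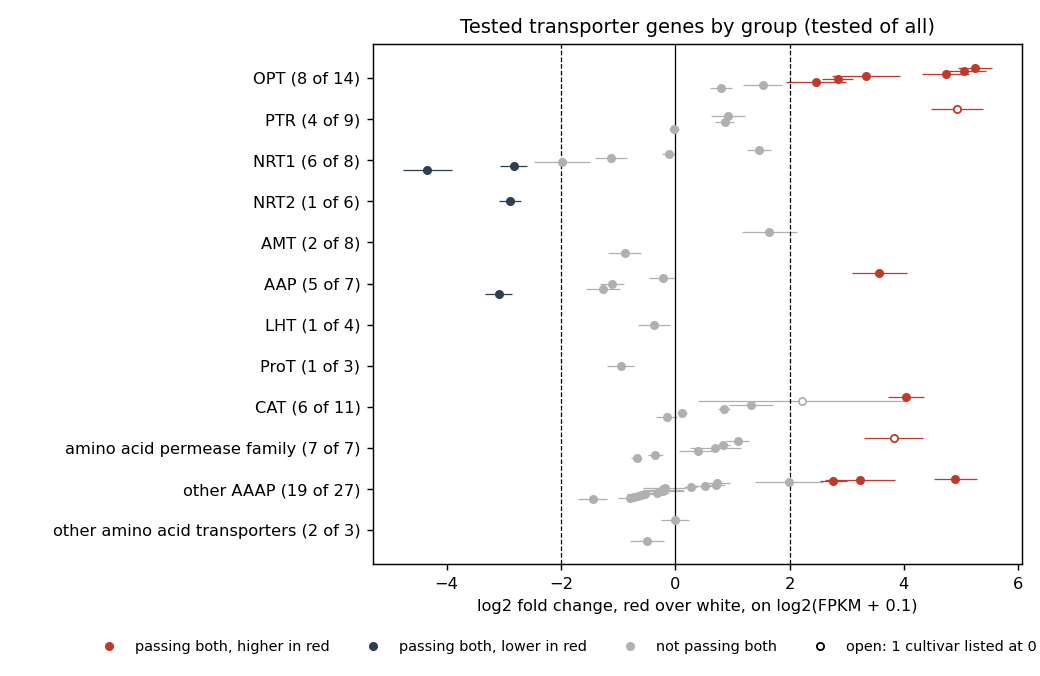
Log2 fold change (red over white, on log2(FPKM + 0.1)) of each of the 62 tested transporters, by group, with its standard error as a horizontal bar. Red points passed both thresholds with higher expression in red, dark points passed with lower expression in red, grey points did not pass, dashed lines mark a log2 fold change of 2 in either direction, and open points are genes listed at 0 in all libraries of 1 cultivar, whose position depends on the pseudocount. All 8 tested oligopeptide transporters lie to the right of 0, and 6 of the 7 tested genes named nitrate transporter lie to the left.

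The groups did not move together. Summed over all 107 genes, the FPKM was 899, 953 and 857 in red and 1104, 1195 and 1058 in white, which was between 0.105% and 0.115% of the total FPKM in red and between 0.1301% and 0.147% in white. Every white library thus lay above every red one. Peptide transporters (OPT and PTR) ran the other way, with 186 ± 24.5 in red and 79.3 ± 4.48 in white (mean ± SD, n = 3). The 14 genes named nitrate transporter summed to 104, 100.4 and 103 in red and to 312, 325 and 210 in white. This sum leaves out 43 other NPF genes, described below, which summed to 696 ± 106 in red and 687 ± 32.2 in white. The 62 amino acid transporters summed to 612 ± 24.8 in red and 755 ± 41.7 in white. The sum over AAP genes was 52.8 ± 1.33 against 102 ± 24.9, that over CAT genes was 61.4 ± 5.49 against 40.6 ± 0.838, and that over ProT genes was 54.9 ± 18.9 against 102 ± 4.38. No test was made of a sum.

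**Figure D2:**
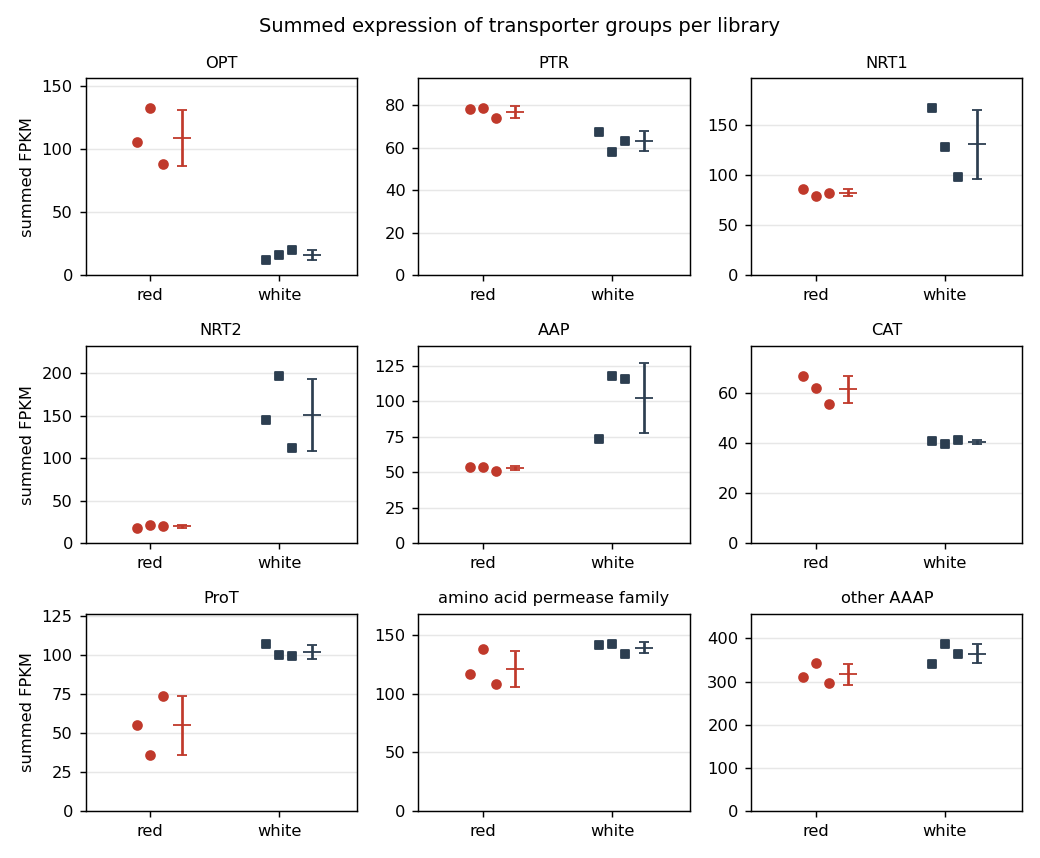
Summed FPKM of 9 transporter groups in each library, with red circles for red-sarcocarp and dark squares for white-sarcocarp pomelo, replicates 1 to 3 from left to right, and the mean with its SD (n = 3) beside them. Each panel has its own axis from 0, and the OPT sums of 88.2 to 133 in red lie above those of 11.99 to 20.3 in white.

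Oligopeptide transporters gave the most one-sided picture. All 8 tested genes had a positive log2 fold change and no overlap between cultivars, beside 57.7% of all tested genes without overlap. Both thresholds were passed by 6 of them, beside 3.11% of all genes in this direction, and the median was 3.09. The summed FPKM of all 14 was 106, 133 and 88.2 in red and 11.99, 16.4 and 20.3 in white. The gene with the highest level was Cg4g014030 (best hit OPT1, which carries small peptides when made in yeast), with 40.8, 63.4 and 41.8 FPKM in red and 0.81, 2.24 and 2.63 in white. It was the largest contributor to that sum in every red library, and it had a log2 fold change of 4.73 ± 0.41 (SE, limma, adjusted p = 0.000235).

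The largest fold change of the group belonged to Cg4g014020 (best hit OPT5), at 14.3, 15.9 and 12.1 FPKM in red and 0.27, 0.16 and 0.43 in white. Every red library stood far above every white one, with a log2 fold change of 5.25 ± 0.30 (SE, limma, adjusted p = 4.7e-05). Its neighbour by identifier, Cg4g014040 (OPT1), was at 3.26, 2.39 and 3.2 in red and 0.36, 0.19 and 1.13 in white. White replicate 3 came nearest to the red values. The log2 fold change of 2.46 ± 0.53 (SE, limma, adjusted p = 0.00874) missed a threshold in 11 of the 17 alternative settings, 5 of them the omission of 1 library (each red one, white replicate 1 or white replicate 2). Over settings its adjusted p ran from 0.00214 to 0.0369. The other neighbour, Cg4g014010 (OPT1), was under the filter at 0.25, 0.11 and 0.29 in red and was listed at 0 in all white libraries. These 4 consecutive identifiers, Cg4g014010 to Cg4g014040, thus all read higher in the red libraries, at levels that differed by more than 100-fold in mean FPKM between the strongest and the weakest.

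On other chromosomes, Cg5g035710 (OPT1) was at 6.08, 8.06 and 4.02 FPKM in red and 0.11, 0.09 and 0.04 in white, a log2 fold change of 5.06 ± 0.37 (SE, limma, adjusted p = 0.000131). Cg1g001620 (OPT7) was at 6.52, 9.77 and 5.59 against 0.92, 0.73 and 1.09, a log2 fold change of 2.84 ± 0.27 (SE, limma, adjusted p = 0.000303). Neither gene had a white library near its lowest red one. Cg8g001970 (OPT4) was low throughout, at 2.79, 1.62 and 1.95 in red and 0.13, 0 and 0.33 in white. Its log2 fold change was 3.34 ± 0.60 (SE, limma, adjusted p = 0.00416). The gene missed the adjusted p without red replicate 1, 2 or 3 or white replicate 1 (0.0124 to 0.0237). It also missed a threshold with a pseudocount of 0.01 or 1, and over all settings the adjusted p ran from 0.00193 to 0.0237.

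**Figure D3:**
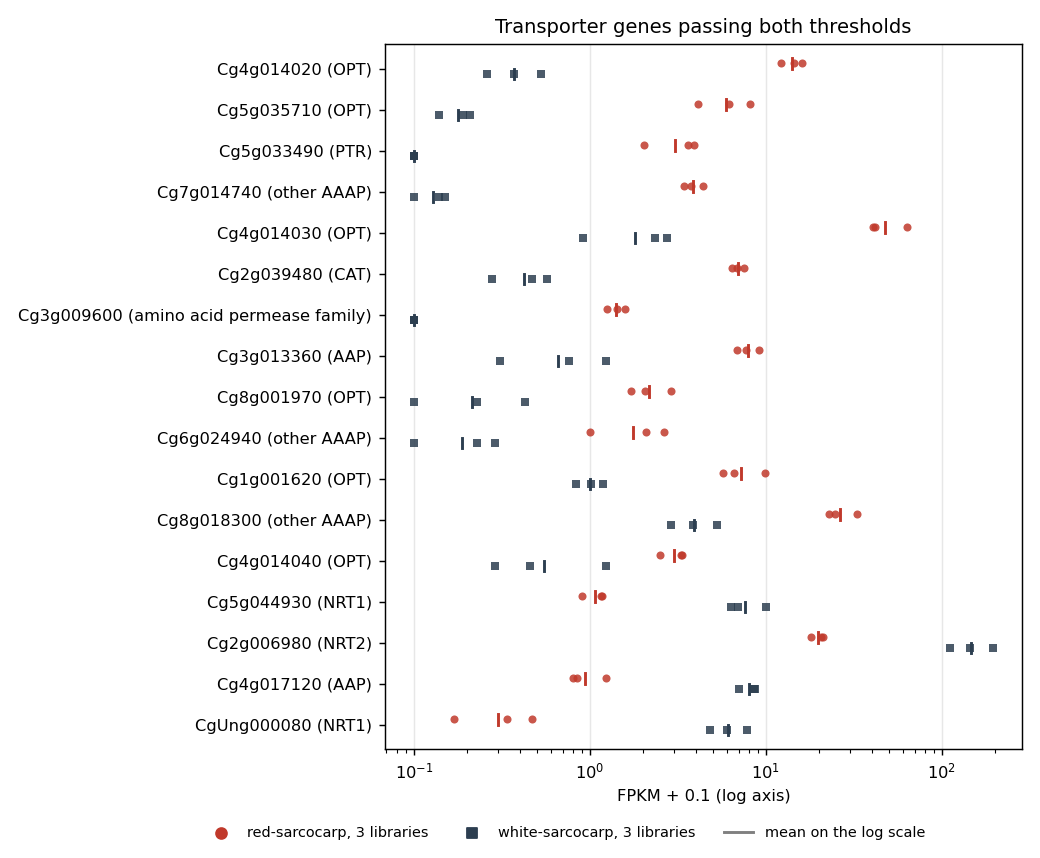
FPKM + 0.1 on a log axis of the 17 transporters that passed both thresholds, ordered by log2 fold change, with red circles for the 3 red-sarcocarp libraries, dark squares for the 3 white-sarcocarp libraries and a short bar at the mean on the log scale. No gene has overlapping cultivars, which the choice of genes by fold and adjusted p makes likely. Squares at 0.1 are white libraries listed at 0.

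The remaining tested members of the group differed less. Cg2g046430, whose best hit is OPT3, a transporter that moves iron and copper to the phloem in Arabidopsis, was at 18.5, 16.7 and 9.74 FPKM in red and 3.27, 5.15 and 7.13 in white. Red replicate 3 lay close to white replicate 3, and the log2 fold change was 1.53 ± 0.34 (SE, limma, adjusted p = 0.00934), under the fold threshold, with an adjusted p of 0.00613 to 0.0391 over settings. Cg4g023280 (best hit OPT6) was at 12.6 ± 2.67 in red and 7.11 ± 0.868 in white (SD, n = 3), with a log2 fold change of 0.80 and an adjusted p of 0.0121 (limma). Seed marker sums were 12.7 to 88.8 FPKM in red and at most 0.25 in white. The 3 seed markers tested were all higher in red, at 7.93, 7.30 and 63.3 FPKM against 0 in all white libraries for Cg2g023710 (seed storage albumin 5). The part of seed RNA in the transporter differences was not tested.

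Peptide transporters of the PTR type carry dipeptides and tripeptides. Cg5g033490, whose best hit PTR3 is induced by wounding in Arabidopsis, was at 3.49, 3.79 and 1.94 FPKM in red and listed at 0 in all 3 white libraries. It passed both thresholds (limma, adjusted p = 0.000291), and no fold is given against a cultivar listed at 0. With a pseudocount of 1 its log2 fold change was 1.99. The gene with the highest level, Cg2g028530 (PTR2), was at 49.5, 50.5 and 44.9 in red and 51.5, 48.1 and 47.2 in white. The cultivars overlapped, and the log2 fold change was -0.02 ± 0.08 (SE, limma, adjusted p = 0.853). Of both tested genes with the best hit PTR1, Cg8g023730 was at 19.5, 17.0 and 20.6 in red and 11.98, 8.15 and 11.3 in white, with no overlap and a log2 fold change of 0.87 ± 0.16 (SE, limma, adjusted p = 0.00521, which rose to 0.0241 without red replicate 1). Cg6g006390 had a log2 fold change of 0.92 with an adjusted p of 0.0416 (limma). Of the 5 PTR genes not tested, 4 were listed at 0 in all libraries.

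Other NPF genes, whose deposited names do not give what they carry, are described further below. Of the 14 genes named nitrate transporter, 7 were tested with limma. Lower expression in red passed both thresholds for 3 of them, beside 3.65% of all genes, and higher expression for 0, beside 3.11%. At an unadjusted p under 0.05, 5 were lower and 1 was higher, which 26.6% and 27.2% of all tested genes also reached in these directions. Cg2g006980 has the best hit NRT2.7, which loads nitrate into the vacuole of Arabidopsis seeds. Its FPKM was 17.9, 20.9 and 20.5 in red and 145, 196 and 112 in white, so the lowest white library was more than 5 times the highest red one. The log2 fold change was -2.89 ± 0.19 (SE, limma, adjusted p = 9.01e-05), and the gene made up nearly all of the NRT2 sum.

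Both tested genes with the best hit NRT1.5, which loads nitrate into the root xylem of Arabidopsis, were also lower in red. Cg5g044930 was at 1.06, 1.07 and 0.80 FPKM in red and 6.24, 9.86 and 6.81 in white, a log2 fold change of -2.83 ± 0.24 (SE, limma, adjusted p = 0.000202). CgUng000080 was at 0.37, 0.24 and 0.07 against 7.76, 5.91 and 4.69, a log2 fold change of -4.34 ± 0.43 (SE, limma, adjusted p = 0.000376). The ranges were well apart for both, and the third gene with this hit was listed at 0 throughout. As CgUng000080 lies outside the numbered chromosomes and shares its hit with Cg5g044930, reads shared between the copies could not be examined here.

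The other NRT1 genes were on either side of 0. Cg7g020530 (NRT1.7, which loads nitrate into the phloem of old leaves in Arabidopsis) was at 33.6, 28.0 and 37.8 FPKM in red and 108, 73.6 and 46.9 in white. The cultivars did not overlap, but the white libraries spread widely, and the log2 fold change of -1.12 ± 0.28 had an adjusted p of 0.0161 (limma). Cg5g008420 (NRT1.1, the nitrate transporter and sensor of Arabidopsis) was low, at 0.18, 0.38 and 0.14 against 1.01, 0.85 and 1.81, with a log2 fold change of -1.99 and an adjusted p of 0.0148 (limma).

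Genes with the best hit NRT1:2, which in Arabidopsis carries nitrate at low affinity and also abscisic acid, did not move alike. Cg7g020620 was higher in red, at 15.1, 21.2 and 12.6 FPKM against 5.89, 6.31 and 4.97, with a log2 fold change of 1.46 ± 0.20 (SE, limma, adjusted p = 0.00144), under the fold threshold. Cg5g003500 overlapped between cultivars, at 36.1, 28.6 and 31.2 against 38.5, 31.6 and 33.3, with a log2 fold change of -0.11 (limma, adjusted p = 0.475). Among the untested genes, Cg7g018930 (NRT2.5, a transporter of nitrogen-starved Arabidopsis) was listed at 0 in red and at 0.62, 0.40 and 0.17 in white, and the other 4 untested NRT2 genes and both untested NRT1 genes were listed at 0 in all libraries.

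Phloem markers were higher in white in sum through 1 gene, Cg6g008370. The others summed to 43.17 to 49.07 FPKM in red and 36.91 to 44.98 in white. Of the 14, 6 were tested with limma and 0 passed both thresholds, beside 6.76% of all tested genes. At the adjusted p with any size of fold, Cg6g008370 was lower in red (limma, adjusted p = 0.000237). Cg5g027040 and Cg5g027060 (best hit AT1G06490) were higher in red (limma, adjusted p = 0.00364 and 0.00502). Of all tested genes, 27.5% reached this adjusted p. An unadjusted p under 0.05 was reached by 5 of the 6 (4 higher and 1 lower in red), as by 53.8% of all tested genes. Of the xylem markers, Cg4g023980 (best hit CESA7, a cellulose synthase of the secondary wall) passed with lower expression in red, at 0.02, 0.04 and 0.03 FPKM against 1.83, 0.83 and 0.87. The 17 xylem markers other than Cg8g000170 summed to at most 1.06 FPKM in red and at least 3.24 in white. Cg8g000170 itself read higher in red, at 24.5, 15.12 and 20.46 against 10.11, 5.47 and 15.09 (limma, adjusted p = 0.0487). All 18 together summed to 16.2 to 25.04 in red and 8.71 to 20.5 in white. The part of vascular tissue in the nitrate transporter differences was not tested.

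**Figure D4:**
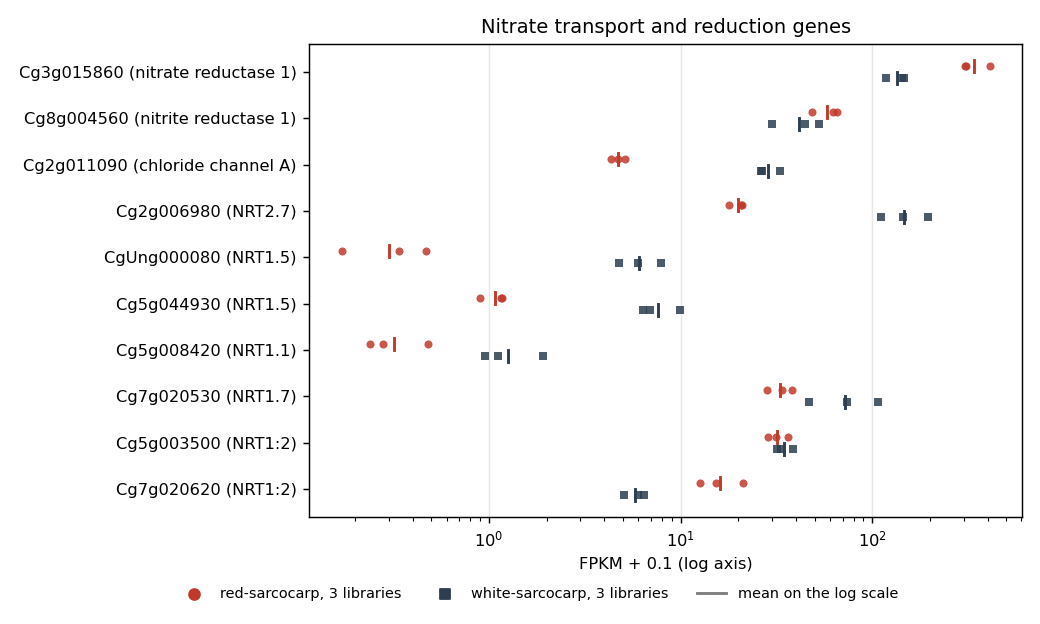
FPKM + 0.1 on a log axis of the 7 tested genes named nitrate transporter and of 3 genes of nitrate reduction and storage. Red circles are red-sarcocarp libraries, dark squares are white-sarcocarp libraries, and a bar marks the mean on the log scale. The genes named NRT2.7, NRT1.5 and chloride channel A are lower in red, and nitrate reductase 1 is higher in red at 305 to 412 FPKM against 118 to 146.

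The steps around transport were read from 23 genes of nitrate reduction, nitrate signalling, ammonium assimilation and the GABA shunt. Of 20 tested, 1 passed both thresholds, with lower expression in red, and 3 were higher and 2 lower at the adjusted p with any size of fold. These shares, 1 and 5 of 20, were close to the 6.76% and 27.5% of all tested genes. The gene that passed was Cg2g011090, whose best hit CLCa exchanges nitrate for protons at the vacuole membrane of Arabidopsis. It was at 5.02, 4.62 and 4.22 FPKM in red and 32.9, 26.1 and 26.6 in white, with the ranges far apart and a log2 fold change of -2.60 ± 0.13 (SE, limma, adjusted p = 3.0e-05). Nitrate reductase (Cg3g015860), named here after its values were seen, was higher in red, at 309, 412 and 305 against 118, 143 and 146, a log2 fold change of 1.32 ± 0.14 (SE, limma, adjusted p = 0.000526). Nitrite reductase (Cg8g004560), likewise named afterwards, overlapped between cultivars, with a log2 fold change of 0.50 and an adjusted p of 0.0977 (limma).

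The highest genes of this list differed by less than the fold threshold. Cg8g017180 (glutamate decarboxylase, which makes GABA from glutamate) was at 896 ± 34.2 FPKM in red and 1186 ± 95.1 in white (SD, n = 3), with an adjusted p of 0.0133 (limma). Cg7g013670 (glutamine synthetase, which fixes ammonium) was at 515 ± 36.7 against 420 ± 32.8, with an adjusted p of 0.0397 (limma). Cg2g039840 (CIPK23, a kinase that acts on NRT1.1 in Arabidopsis) was higher in red at the adjusted p, at 384 ± 19.5 against 262 ± 23.6, with a log2 fold change of 0.55 (limma, adjusted p = 0.00293).

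A further 43 genes had an NPF gene as best hit without nitrate or peptide in their name. Of 13 tested, 3 passed both thresholds, all with lower expression in red (23.1%, beside 3.65% of all genes). The widest difference was that of Cg7g014500 (best hit NPF3.1, which carries gibberellin in Arabidopsis), at 0.04, 0.07 and 0.26 FPKM in red and 37.8, 28.7 and 29.0 in white, a log2 fold change of -7.27 ± 0.37 (SE, limma, adjusted p = 3.0e-05). Both others, Cg5g003600 and CgUng019330, have the best hit NPF2.11, a glucosinolate transporter of Arabidopsis. Cg5g003600 was at 1.81 ± 0.243 against 8.11 ± 0.326 (SD, n = 3), with a log2 fold change of -2.11 (limma, adjusted p = 0.000137). CgUng019330 was listed at 0 in red and at 2.55, 9.08 and 7.78 in white, but its mean normalized count in the authors' table was 0, so its FPKM rests on reads that the other counting did not assign. The highest genes were Cg2g019000 (best hit NPF6.4), at 543 ± 86.2 against 508 ± 26.0, above every one of the 107 transporters in mean FPKM, and Cg3g020640 (best hit AT1G22540), at 55.1 ± 5.59 against 51.0 ± 4.08, which both overlapped between cultivars, and Cg4g003910 (NPF1.2), higher in red at 50.9 ± 11.4 against 14.5 ± 2.59 with a log2 fold change of 1.79 (limma, adjusted p = 0.000504).

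Ammonium transporters were low in both cultivars. Of 8 genes, 2 were tested with limma and 0 reached the adjusted p, although both had an unadjusted p under 0.05, as had 53.8% of all tested genes. The group summed to 2.30 ± 0.132 FPKM in red and 2.44 ± 0.737 in white. Cg9g010260 (AMT1;1) was at 1.09, 1.1 and 0.95 against 0.15, 0.55 and 0.20, with an adjusted p of 0.0291 (limma). Cg1g009130 (AMT2) was at 0.99, 0.88 and 1.13 against 1.43, 1.91 and 2.59, with an adjusted p of 0.0441 (limma). Neither gene overlapped between cultivars, and they differed in opposite directions.

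The numbered amino acid permeases (AAP), proton-coupled importers of a broad range of amino acids, held 1 gene that passed in each direction among 5 tested. Over all tested genes, 3.11% passed as higher in red and 3.65% as lower. Cg3g013360 has the best hit AAP6, a high-affinity permease of Arabidopsis xylem parenchyma. It was at 6.79, 9.10 and 7.58 FPKM in red and 0.66, 1.13 and 0.21 in white, with a log2 fold change of 3.57 ± 0.48 (SE, limma, adjusted p = 0.00125). Cg4g017120 (AAP7) was lower in red, at 1.14, 0.70 and 0.75 against 6.94, 8.56 and 8.44, a log2 fold change of -3.09 ± 0.23 (SE, limma, adjusted p = 0.000136). Its neighbour Cg4g017110, with the same best hit, overlapped between cultivars at 5.02, 4.20 and 2.97 against 5.80, 3.91 and 4.41, with an adjusted p of 0.488 (limma).

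The AAP gene with the highest level, Cg3g016920 (AAP3, a carrier of basic amino acids), was at 37.6, 38.0 and 38.5 FPKM in red and 56.2, 98.9 and 98.3 in white. White replicate 1 stood apart from the other white libraries but above all red ones, and the log2 fold change was -1.10 ± 0.21 (SE, limma, adjusted p = 0.0055), with an adjusted p of 0.000237 to 0.0236 over settings. The 9 epidermis markers summed to 18.2, 56.3 and 50.3 in white replicates 1 to 3 and to 18.2 to 19.9 in red, nearly all from 1 gene (Cg4g018490, best hit AT2G26250), and 5 of the 9 were at 0 in all white libraries. Their part in the AAP3 difference was not tested. Cg8g001750 (AAP2) was at 1.95 ± 0.857 against 4.60 ± 0.621 (SD, n = 3), with an adjusted p of 0.0124 (limma).

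Among the cationic amino acid transporters, Cg2g039480 (named amino acid transporter 1, known as CAT1, an importer of lysine, arginine and other amino acids in Arabidopsis) passed both thresholds. Its FPKM was 6.72, 7.45 and 6.35 in red and 0.37, 0.47 and 0.18 in white, with tight replicates in both and a log2 fold change of 4.04 ± 0.31 (SE, limma, adjusted p = 0.000153). Cg5g031750 (CAT2, a vacuolar transporter in Arabidopsis) was higher under the fold threshold, at 18.7, 19.1 and 19.5 against 11.3, 11.3 and 9.14, a log2 fold change of 0.85 ± 0.11 (SE, limma, adjusted p = 0.00119). Cg5g044260 (CAT9) and Cg5g016190 (CAT8) did not pass at either threshold, with log2 fold changes of 0.12 and -0.15 and adjusted p of 0.271 and 0.540 (limma). Cg2g037130 (CAT5) was at 1.68, 2.59 and 2.50 against 0.47, 0.89 and 1.3, with an adjusted p of 0.0288 (limma). The last tested member, Cg9g018850 (CAT2), was at 10.03 in red replicate 1 and listed at 0 in the other 5 libraries (limma, adjusted p = 0.350), so the highest CAT sum, that of red replicate 1, includes this value.

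The amino acid permease family, whose best hits include polyamine uptake transporters of Arabidopsis, was the 1 group in which all 7 members were tested. Cg3g009600 was at 1.15, 1.48 and 1.33 FPKM in red and listed at 0 in all white libraries. It passed both thresholds (limma, adjusted p = 0.00126), but not with a pseudocount of 0.5 or 1, and no fold is given. The other 3 genes with its best hit, AT1G31830, also read higher in red in their means. Of these, Cg3g009850 was at 21.0, 23.6 and 19.3 against 13.2, 11.2 and 11.1 and was higher under the fold threshold, with a log2 fold change of 0.84 ± 0.12 (SE, limma, adjusted p = 0.00153). Cg8g001380 was at 7.91, 7.72 and 9.90 against 3.1, 3.92 and 4.95, a log2 fold change of 1.09 ± 0.20 (SE, limma, adjusted p = 0.0046, at most 0.0182 over settings). Cg3g009700 overlapped between cultivars, with an adjusted p of 0.238 (limma).

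The highest gene of this family went the other way. Cg2g000810 was at 56.8, 70.3 and 58.1 FPKM in red and 101, 98.2 and 95.3 in white, with no overlap and a log2 fold change of -0.67 ± 0.10 (SE, limma, adjusted p = 0.00169). Its neighbour by identifier with the same hit, Cg2g000800, was at 19.7, 23.8 and 9.21 against 11.8, 14.4 and 11.0, which overlapped (limma, adjusted p = 0.359).

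Of the other transmembrane amino acid transporters, 19 of 27 were tested, and 3 passed with higher expression in red, beside 3.11% of all tested genes. At the adjusted p with any size of fold, 4 were higher and 3 lower, beside 13.4% and 14.1% of all tested genes. The median log2 fold change was -0.21. Cg8g018300 has the best hit AT1G08230, known as GAT1, which imports GABA (an amino acid that accumulates in citrus pulp). It was at 24.7, 32.9 and 22.6 FPKM in red and 2.80, 5.19 and 3.75 in white, so the lowest red library was more than 4 times the highest white one. The log2 fold change was 2.77 ± 0.24 (SE, limma, adjusted p = 0.000236). GABA transaminase (Cg6g012020), which breaks GABA down, was at 194 ± 6.69 against 156 ± 2.52 (SD, n = 3), with a log2 fold change of 0.31 (limma, adjusted p = 0.00811).

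Cg7g014740 (best hit AT1G25530) was at 3.31, 3.65 and 4.30 FPKM in red and 0.04, 0.05 and 0 in white, a log2 fold change of 4.90 ± 0.38 (SE, limma, adjusted p = 0.000153). Its white libraries were all at or near 0. Cg6g024940 (best hit AT3G28960) was at 1.99, 0.90 and 2.54 against 0.19, 0 and 0.13. Its log2 fold change was 3.23 ± 0.61 (SE, limma, adjusted p = 0.00516). The gene missed the adjusted p without red replicate 1 or 3 or white replicate 2 or 3. It also missed a threshold with a pseudocount of 0.01, 0.5 or 1, and it passed in 8 of the 15 settings that included it. Over settings the adjusted p ran from 0.00428 to 0.0272. The neighbour with the same hit, Cg6g024930, was at a higher level and overlapped, at 10.1, 11.7 and 6.78 against 6.49, 12.4 and 15.7 (limma, adjusted p = 0.638).

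The gene with the highest mean FPKM of all 107, Cg1g000570, has the best hit AVT3C, an exporter of amino acids from the vacuole in Arabidopsis. It was at 91.0, 87.4 and 91.5 FPKM in red and 142, 150.1 and 153 in white, and replicates were so close that a log2 fold change of -0.72 ± 0.07 gave an adjusted p of 0.000325 (SE, limma). A second gene with this hit, Cg8g000370, was also lower under the fold threshold, at 1.1, 1.46 and 0.91 against 3.02, 2.91 and 3.95, with a log2 fold change of -1.44 ± 0.25 (SE, limma, adjusted p = 0.00381, at most 0.0166 over settings). Cg9g014780 (best hit AT2G41190) was at 29.96, 26.04 and 23.97 against 40.2, 39.7 and 40.7, a log2 fold change of -0.60 ± 0.10 (SE, limma, adjusted p = 0.00287, at most 0.0123 over settings). None of these 3 genes overlapped between cultivars.

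Genes Cg5g001580 and Cg5g001590, neighbours with the best hit AT5G41800, were at 24.7 ± 4.44 against 39.1 ± 7.99 and at 26.3 ± 11.7 against 30.5 ± 12.7 (SD, n = 3), with adjusted p of 0.0258 and 0.653 (limma). The rule also took in the auxin carrier AUX1 (best hit AT2G38120), which belongs to the same protein family. Cg7g001220 was at 20.7, 21.4 and 17.9 FPKM in red and 13.1, 13.8 and 9.87 in white, with a log2 fold change of 0.71 ± 0.15 (SE, limma, adjusted p = 0.00774). Its level in red thus lay above that in white without overlap, and Cg6g006550, with the same hit, was under the filter and overlapped.

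Of the 4 tested genes named proline, lysine histidine or bidirectional amino acid transporter, 0 reached the adjusted p (limma), beside 27.5% of all tested genes. An unadjusted p under 0.05 was reached by 1, beside 53.8% of all tested genes. Cg7g000250 (ProT1, an importer of proline and related solutes) was at 55.0, 35.8 and 73.6 FPKM in red and 107, 99.3 and 98.9 in white. All white libraries were above the red ones, but the red ones spread over more than a factor of 2, and the log2 fold change of -0.95 ± 0.24 had an adjusted p of 0.0152 (SE, limma). Cg2g011580 (LHT1, an importer of neutral and acidic amino acids) was at 1.86 ± 0.557 against 2.38 ± 0.410 (SD, n = 3), with an adjusted p of 0.323 (limma). Both tested bidirectional transporters overlapped between cultivars, at 1.46 ± 0.285 against 1.44 ± 0.0814 for Cg1g024490 and 1.59 ± 0.291 against 2.32 ± 0.764 for Cg2g035630 (SD, n = 3).

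Amino acid exporters of the UMAMIT type (deposited as nodulin MtN21) are not in the name rule, and 38 such genes were read beside it. Of 14 tested, 1 passed both thresholds, with higher expression in red, and 5 were higher and 1 lower at the adjusted p with any size of fold. The share past both thresholds was 7.14%, close to the 6.76% of all genes, and that higher at the adjusted p was 35.7%, beside 13.4%. Cg1g026220 was at 5.54, 15.0 and 8.37 FPKM in red and 1.05, 1.61 and 0.52 in white, a log2 fold change of 3.07 ± 0.47 (SE, limma, adjusted p = 0.00212). The 3 with the highest level were all higher in red under the fold threshold, at 61.3 ± 8.01 against 28.6 ± 3.54 for Cg5g004660, 39.9 ± 3.04 against 25.8 ± 1.13 for Cg2g006130 and 20.03 ± 1.85 against 9.58 ± 0.726 for Cg2g006150 (SD, n = 3). The summed FPKM was 179 ± 4.10 in red and 109 ± 5.10 in white.

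Levels were unevenly shared among the 107 transporters. The 12 with the highest mean FPKM, between 25.3 and 119, made up 67.2% of the summed FPKM of the group. Of these 12, 2 passed both thresholds, namely Cg4g014030 and Cg2g006980, beside 6.76% of all tested genes. With these counted, 5 were lower in red and 1 was higher at the adjusted p, beside 14.1% and 13.4% of all tested genes. Of all 107, 27 genes had a mean of at least 10, these 12 included, 30 had one between 1 and 10, and 50 had one below 1. Among the 13 genes that passed with higher expression in red, 3 had a mean of at least 10 FPKM in red, and all had a white mean below 4.

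Copies were compared through their shared best hits. A best hit was shared by at least 2 of the 107 in 29 cases, which took in 81 genes, and in 15 cases at least 2 were tested. In 0 of these did copies pass both thresholds in opposite directions. More than 1 copy passed only for the hits NRT1.5 (2, lower in red) and AT5G55930, or OPT1 (3, higher in red). The other cases could therefore not show opposite directions. Of 15 pairs with adjacent identifiers (10 apart), 6 had both genes tested, and in 2 of these, Cg4g014020 with Cg4g014030 and Cg4g014030 with Cg4g014040, both genes passed. In another 2 pairs, those of Cg4g017120 and Cg6g024940, 1 gene passed and its neighbour overlapped between cultivars. Reads that fit more than 1 copy could have been split between near-identical genes, and the likeness of their sequences was not examined here.

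The 45 transporters not tested comprised 28 listed at 0 in all 6 libraries and 17 at low levels, the highest single value being 1.79 FPKM and the highest mean 0.843. The share without overlap among all untested genes is not given here. Libraries of the cultivars did not overlap in 4 of these 45 transporters. Besides Cg4g014010 and Cg7g018930, these were Cg5g007320 (CAT6), at 0.58, 1.79 and 0.10 in red and 0.04, 0 and 0 in white, and Cg6g004900 (other AAAP), listed at 0 in red and at 0.57, 0.09 and 0.15 in white. A value listed at 0 need not mean no reads, since the authors' mean normalized count was above 0 for 6 of the 28, and for 2154 such genes over the whole table.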

How the data were processed

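RNA-seq of ripe sarcocarp was analysed in 6 libraries, 3 per cultivar, assigned to cultivar and replicate by their labels. The authors trimmed reads with Trimmomatic, mapped them to the C. maxima genome with STAR 2.7.1a and deposited FPKM from RSEM 1.3.1, rounded to 2 decimals. Whether the libraries kept strand is not given in the sources used here, so overlapping genes on opposite strands cannot be told apart. The deposited mean normalized count over the 6 libraries, from featureCounts 2.0.1 and DESeq2, was used only as the authors' pooled value, to set beside the FPKM. The fold changes, statistics and p-values of the authors' comparison, and their table of differentially expressed genes, were not used. No FPKM column was left out (0 unused). As FPKM carries no count, depth per value is unknown, no counting interval is given, and precision rests on 3 replicates. All 107 genes had a best Arabidopsis hit in the deposited annotation.

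Genes averaging 1 FPKM or more in a cultivar were fitted by limma 3.58.1 (R 4.3.3) on log2(FPKM + 0.1) (empirical Bayes with a mean-variance trend, cultivar as the term), after the code was tested on simulated data. Sums and counts used Python 3.11.15 and pandas 2.3.3. The members and lists were chosen with earlier results of these data known. Genes named are those passing both thresholds, the 12 highest by mean FPKM, the 8 largest changes at the adjusted p under the fold threshold, untested genes without overlap, genes listed at 0 in 5 or 6 libraries with a mean normalized count of at least 10, and on each list the passing genes and the 3 highest. Other genes were named after their values were seen. Alternatives were other pseudocounts, filters, scalings (TPM, median ratio), moderation, thresholds, a replicate block and leaving out each library. A filter on the mean over all 6 libraries was chosen after seeing the data. No reference sequence was used.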

Additional observations from a re-analysis of the deposited data

Results flagged for a closer look

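For 3 of the 4 genes with the best hit CAT2, the deposited FPKM and the authors' mean normalized count, which came from another counting of the same reads, gave different pictures, and the count is data that the comparison of cultivars does not use. Cg1g019100 was listed at 0 FPKM in all 6 libraries beside a mean normalized count of 129. Cg8g009470 was listed at 0 in 5 libraries and at 0.42 in white replicate 2, beside a mean normalized count of 149. Cg9g018850 was at 10.03 FPKM in red replicate 1 and at 0 elsewhere, beside a mean normalized count of 44.5. The remaining gene with this hit, Cg5g031750, had FPKM between 9.14 and 19.5 in all libraries. Among the tested transporters, the ratio of mean normalized count to mean FPKM was 36.2 at the median and 4.37 to 72.2 over the range, and it was 18.6 to 58.9 for the 17 that passed both thresholds. The FPKM of these 3 CAT2 genes are therefore given as listed values.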

How the results depend on the processing

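Of the 17 transporters that passed both thresholds, 12 did so in every one of the 17 alternative settings, 5 did not (Cg4g014040, Cg8g001970, Cg5g033490, Cg3g009600 and Cg6g024940), and 0 changed sign. The number higher in red was 8 with a pseudocount of 1, where all genes gave 530. Leaving out single libraries gave 10 to 12 higher and 4 lower, and at the adjusted p with any size of fold 13 (without red replicate 1) to 17 higher and 6 to 10 lower. Over all genes it gave 768 to 916 in place of 957. With a fold threshold of 1, all genes gave 2075, the nitrogen assimilation list 3, other NPF genes 6 and UMAMIT genes 5. Without a filter on low values, other NPF genes gave 5 and UMAMIT genes 2, as the latter did with a mean FPKM of 0.5. The log2 fold change of Cg2g028530 ran from -0.054 to 0.032 when single libraries were left out, turning positive without red replicate 3 or white replicate 1 (0.02), and that of Cg5g001590 from -0.56 to 0.090, turning positive without red replicate 3 (0.02) or white replicate 2. Why these values moved was not tested. Same-numbered libraries did not deviate together (r = 0, 0.031 and -0.045). Such values cannot show whether libraries were collected or prepared in pairs, and the numbers are not stated to pair them. With a replicate block, 11 transporters were higher and 4 lower, all genes gave 804, and Cg4g014040 (adjusted p = 0.0107) and Cg3g009600 (0.0102) no longer passed. Depth per value is unknown, so what it limits was not measured.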

Other observations

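Several tested transporters of the vacuole and of amino acid uptake lay near the thresholds or showed no difference, and they were chosen for mention after their values were seen. Cg1g020530, whose best hit AVT6E belongs to a family of vacuolar amino acid exporters, was at 5.91, 3.61 and 5.72 FPKM in red and 3.33, 0.81 and 0.57 in white, with a log2 fold change of 1.99 ± 0.59 (SE, limma, adjusted p = 0.0304). Its cultivars did not overlap, white replicate 1 was nearest to red, and its mean normalized count was 14.5, beside 191 for Cg1g020560 with the same hit and a like FPKM (4.51 ± 1.02 in red and 5.54 ± 0.515 in white, SD, n = 3). Both genes with the best hit AVT6A differed little, at 19.4 ± 0.660 against 16.1 ± 1.87 for Cg3g013160 and 15.6 ± 0.358 against 18.1 ± 1.40 for Cg6g023200, with adjusted p of 0.0816 and 0.108 (limma). Of the 3 tested genes with the best hit AT1G47670, Cg3g021940 was at 24.7, 24.9 and 20.1 FPKM in red and 11.3, 18.8 and 19.7 in white, without overlap and with an adjusted p of 0.0910 (limma). Cg8g003260, the last of the amino acid permease family, was at 9.53 ± 0.525 against 12.2 ± 1.67 (SD, n = 3), with an adjusted p of 0.0601 (limma).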
